A study of Mus musculus with 6 samples.

Results

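The genes described here handle glutamate as a transmitter: the vesicular glutamate transporters Slc17a6, Slc17a7 and Slc17a8, the plasma membrane carriers Slc1a1, Slc1a2, Slc1a3, Slc1a4 and Slc1a6, and Glul, which encodes glutamine synthetase. They were chosen by name from a list of 9 genes, and a probe set was used where the platform annotation names that 1 gene. Of the 9 genes, 8 were found, with 23 probe sets, out of 18193 genes with 34945 such probe sets. No probe set here names Slc17a8 alone, so it was not analysed here. A mean intensity of at least 50 in at least 1 group was reached by 17 of the 23 probe sets, which together cover the 8 genes, and the other 6 probe sets were not tested.

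RNA on tagged ribosomes was compared between 2 lines of transgenic mice by translating ribosome affinity purification (TRAP), in which a tagged ribosomal protein is made under a driver gene and its ribosomes are pulled from cortex lysate with their messenger RNA. The Glt25d2 line (DU9) and the S100a10 line (ES691) gave 3 biological replicates each, untreated, from FVB mice backcrossed for 3 to 5 generations to C57BL/6. Each sample is 1 array made from 15 ng of RNA by 2 cycles of amplification, and the sources used here do not give age, sex or pooling of animals. Each line carries its transgene from a bacterial artificial chromosome, and both were studied as cortical pyramidal cells, although the series text says that the S100a10 transgene also marks some cells that are not neurons. In these samples fewer cells of a type and less messenger per cell cannot be told apart.

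Glutamate released at a synapse is first packed into vesicles by the Slc17a6, Slc17a7 or Slc17a8 carrier. It is then cleared by Slc1 carriers, of which Slc1a2 and Slc1a3 are best known from astrocytes and Slc1a1 from neurons, and glutamine synthetase turns it to glutamine in astrocytes. In cortex, Slc17a7 is the vesicular transporter known from most pyramidal neurons and Slc17a6 is better known from thalamus and brainstem.

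The scaling and 1 array bear on every value below. The intensity distributions were alike within a line and differed between lines: array medians were 20.4 to 21.3 in Glt25d2 and 35.5 to 35.8 in S100a10, and the median gene differed by 0.56 on the log2 scale (S100a10 minus Glt25d2), or by -0.018 after quantile normalization of the 6 arrays and -0.21 after centring each array on its median. Glt25d2 replicate 3 stood apart. It lay over 2-fold below the other Glt25d2 arrays in 14.5% of 11821 genes and over 4-fold below in 8.40%, although the median gene was 0.070 higher there on the log2 scale. The differences of the 8 genes and the counts of calls are therefore given with and without that array, and after quantile normalization. Every difference below is S100a10 minus Glt25d2 on the log2 scale, and p-values from limma were adjusted over all 21291 probe sets tested by the Benjamini-Hochberg method. Where a gene had several probe sets, the one with the highest mean was used. Levels of different genes are not compared, since probes differ in brightness.

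With all arrays, 3 of the 8 genes were higher in S100a10 cells, namely Slc17a7, Slc1a6 and Glul, none was lower (limma; 3 and 0 at an unadjusted p under 0.05), and 5 did not pass. The filter kept Slc1a6 through its S100a10 values alone. Among all genes 44.4% were higher and 4.50% lower, so the share higher is close to the background. The arrays of the lines did not overlap for 5 of the 8 genes, beside 63.8% of all genes. The median difference of the 8 genes was 1.14, beside 0.56 for all genes. Without Glt25d2 replicate 3 it was 0.67 beside 0.52, after quantile normalization 0.52 beside -0.018, and with both changes 0.21 beside -0.029. Without Glt25d2 replicate 3, 5 were higher (Slc17a6 and Slc1a3 were added) and 1 was lower (Slc1a1), against 55.1% and 6.13% of all genes. After quantile normalization only Slc17a7 passed, against 18.4% of all genes higher and 18.4% lower, and after centring again only Slc17a7, against 16.4% and 31.3%. With both changes together Slc17a7 was higher and Slc1a1 and Slc1a4 were lower, against 23.8% and 22.9%.

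**Figure D1:**
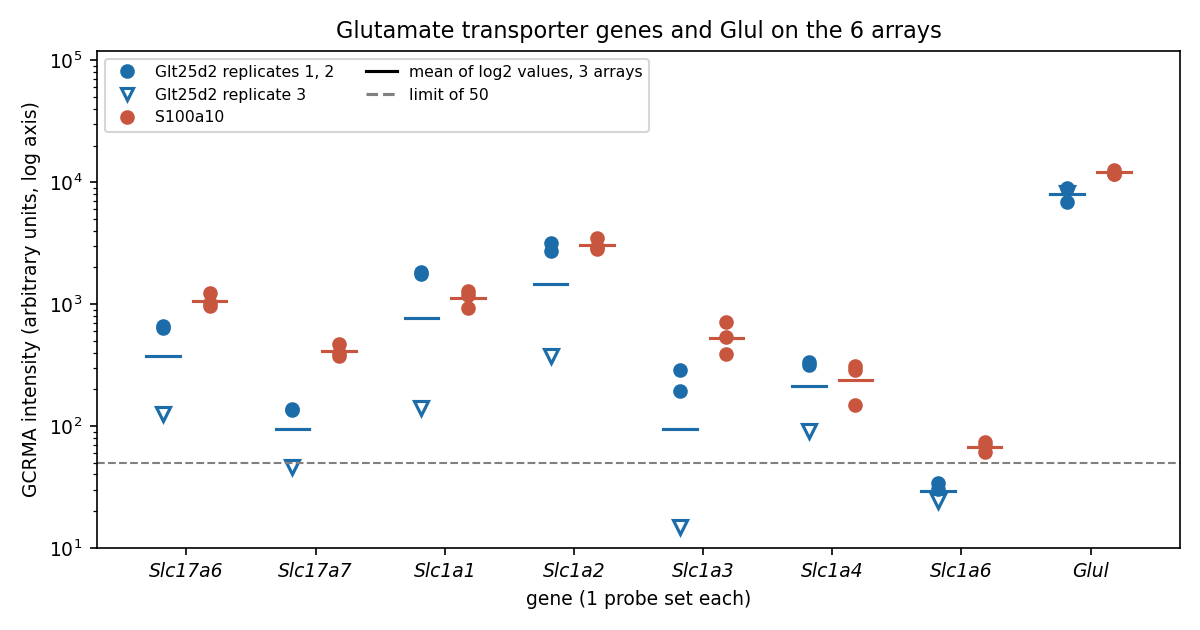
Deposited GCRMA intensity (log axis) of 8 genes, 1 probe set each, on the 3 Glt25d2 arrays (blue, with replicate 3 as an open triangle) and the 3 S100a10 arrays (red); bars are means of log2 values and the dashed line marks 50. Replicate 3 is the lowest of the 6 arrays for the 7 transporter genes and lies between the other Glt25d2 arrays for Glul, and heights are not comparable between genes.

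Slc17a7, the main vesicular glutamate transporter of cortical pyramidal cells, was higher in the S100a10 line. Its only probe set read 134, 138 and 46.1 in Glt25d2 replicates 1 to 3 and 373, 472 and 397 in S100a10 replicates 1 to 3. The groups did not overlap, and replicate 3 was the lowest array. The means were 106 ± 52.0 and 414 ± 51.7 (SD, n = 3 each). The difference was 2.12 with an SE of 0.45 (limma adjusted p = 0.0113). Without Glt25d2 replicate 3 the difference was 1.60 (SE 0.14, limma adjusted p = 1.62e-04). It was 1.34 after quantile normalization (limma adjusted p = 0.0350), 1.35 after centring (0.0461) and 0.88 with quantile normalization and without that array (0.00372). Slc17a7 was the 1 gene of the 8 that passed in each of these fits.

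Slc17a6, the vesicular transporter of many subcortical neurons, had 2 probe sets. The brighter read 639 and 663 in Glt25d2 replicates 1 and 2, 125 in replicate 3, and 972, 1026 and 1227 in the S100a10 arrays. The groups did not overlap, but replicate 3 made the Glt25d2 spread wide, and the difference of 1.51 (SE 0.67, 95% interval -0.15 to 3.17) did not pass (limma adjusted p = 0.115). Leaving out that array gave 0.72 (SE 0.14, limma adjusted p = 0.00494), quantile normalization with all arrays gave 0.89 (0.276) and both changes gave 0.19 (0.329). The dimmer probe set read 123, 147 and 29.9 against 218, 109 and 263, so its groups overlapped, and its difference of 1.18 did not pass (limma adjusted p = 0.209). It turned to -0.30 with quantile normalization and without replicate 3.

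Slc1a1, the glutamate carrier of neuronal cell bodies and dendrites, gave different directions with and without Glt25d2 replicate 3. Its brightest probe set read 1840.2 and 1777 in Glt25d2 replicates 1 and 2, 140.4 in replicate 3, and 935, 1275 and 1196 in the S100a10 arrays. The S100a10 arrays therefore lay below 2 Glt25d2 arrays and above the other. With all arrays the difference was 0.54 (SE 1.04, 95% interval -2.02 to 3.11, limma adjusted p = 0.682). Quantile normalization with all arrays gave -0.024 (limma adjusted p = 0.987). Without replicate 3 the difference was -0.68 (SE 0.16, limma adjusted p = 0.0104), and -1.12 after quantile normalization as well (0.00278). A further probe set moved the same way: it read 642, 742 and 40.0 against 262, 356 and 368, a difference of 0.28 with all arrays (limma adjusted p = 0.851) and -1.09 without replicate 3 (0.00245). The remaining one lay under 50 in every array, from 13.9 to 35.1.

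Slc1a6, a carrier best known from Purkinje cells of the cerebellum, was near the limit of 50. It read 34.1, 30.3 and 24.4 in Glt25d2 and 60.8, 69.1 and 74.1 in S100a10 arrays. Every Glt25d2 array lay under 50 and every S100a10 array over it, so on the deposited scale S100a10 cells held at least 1.36-fold more. The filter kept this gene through its S100a10 values alone, so a call as lower was not open to it on that scale. The fit gave limma adjusted p = 0.00187, and 7.89e-04 without Glt25d2 replicate 3. The call did not hold after quantile normalization (0.32, limma adjusted p = 0.158) or centring (0.44, 0.0576), and 0.32 on the log2 scale is below the bound.

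Slc1a2, the carrier that clears most glutamate in forebrain, did not pass. Its brightest probe set read 2714 and 3159 in Glt25d2 replicates 1 and 2, 372 in replicate 3, and 2819, 2947 and 3471 in the S100a10 arrays. Apart from replicate 3 the arrays of both lines lay in 1 range. The difference was 1.06 (SE 0.84, 95% interval -1.01 to 3.13, limma adjusted p = 0.334) with all arrays and 0.067 (SE 0.15, limma adjusted p = 0.714) without replicate 3. Quantile normalization gave 0.64 (limma adjusted p = 0.551), and -0.28 without that array as well (0.161). Of its other probe sets, 1 read 160.5, 189 and 31.7 against 483, 116 and 687, a wider spread within S100a10 than on the brightest one, and another read 74.0, 72.2 and 10.6 against 58.5, 71.8 and 59.4. Neither passed (limma adjusted p = 0.175 and 0.479). The latter was lower with quantile normalization and without replicate 3 (-1.06, limma adjusted p = 0.00149).

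Slc1a3, the other main carrier of astrocytes, did not pass with all arrays. Its brightest probe set read 195, 288 and 14.8 in Glt25d2 and 388, 713 and 535 in S100a10 arrays, without overlap. The difference was 2.49 (SE 1.15, 95% interval -0.34 to 5.32, limma adjusted p = 0.124). That size rests on replicate 3, which lay under 50: with values under 50 set to 50 it was 1.91 (limma adjusted p = 0.0677), beside 2.08 for Slc17a7. Quantile normalization gave 1.86 (limma adjusted p = 0.241). Without Glt25d2 replicate 3 it was 1.16 (SE 0.29, limma adjusted p = 0.0121), beside 1.60 for Slc17a7, and 0.51 after quantile normalization as well (0.195). The probe sets disagreed. A second read 118, 342 and 27.7 against 183, 291 and 172 and differed by 0.061 without replicate 3, and another read 58.6, 97.4 and 23.6 against 74.2, 126 and 86.0 and differed by 0.30. Both overlapped between the lines and neither passed in that fit (limma adjusted p = 0.917 and 0.404).

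Slc1a4 belongs to the same gene family but exchanges neutral amino acids such as serine and alanine. Its brightest probe set read 336, 316 and 91.3 in Glt25d2 and 149.6, 309.7 and 289 in S100a10 arrays. The difference of 0.15 (SE 0.59, 95% interval -1.30 to 1.61) did not pass (limma adjusted p = 0.840), nor did -0.46 without replicate 3 (0.243) or -0.66 after quantile normalization (0.367). With quantile normalization and without replicate 3 it was -1.14 (limma adjusted p = 0.0326), and a dimmer probe set was -1.20 (0.00308) while the remaining one was -0.53 (0.0738).

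Glul was higher in S100a10 cells on both of its probe sets, and it is the 1 gene of the 8 whose product works in the cytosol. The brighter read 6830.3, 8958 and 8229.9 in Glt25d2 and 11731, 12693 and 11689 in S100a10 arrays. The means were 8006 ± 1081 and 12038 ± 568 (SD, n = 3 each). The difference was 0.60 with an SE of 0.13 (limma adjusted p = 0.0130), close to the 0.56 of the median gene. The other read 2329, 2375 and 2425 against 4601, 4949 and 4918, which differ by 1.02 (SE 0.090, limma adjusted p = 3.92e-04). Neither overlapped between the lines, and Glt25d2 replicate 3 was not low on either. After quantile normalization the first was 0.40 (limma adjusted p = 0.0715) and the second 0.71 (0.00479). After centring the first turned to -0.17 (limma adjusted p = 0.372) and the second was 0.25 (0.0899), so the direction for Glul depends on the scaling and on the probe set.

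**Figure D2:**
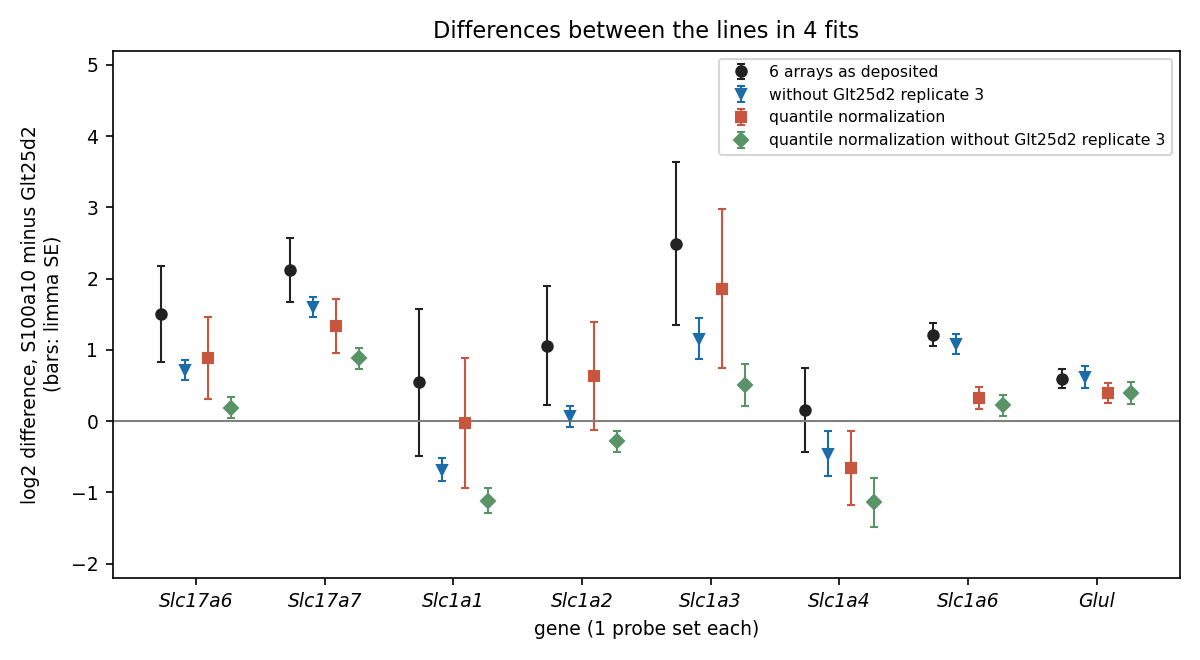
Log2 difference S100a10 minus Glt25d2 of 8 genes, 1 probe set each, in 4 fits, with limma SE as bars. Slc17a7 lies above 0 in the 4 fits, from 2.12 to 0.88, while Slc1a1 goes from 0.54 with all arrays to -0.68 without Glt25d2 replicate 3.

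The start regions of Slc17a7, Slc1a1 and Glul are shown because these genes differ in behaviour: Slc17a7 was higher in S100a10 cells in the 4 fits, Slc1a1 was lower without Glt25d2 replicate 3, and Glul was higher with all arrays. Each is the 250 bases before the annotated start on the plus strand, from RefSeq on GRCm38.p6, at chr7:45163671-45163920, chr19:28834885-28835134 and chr1:153899679-153899928 in that order. Capitals mark matches on either strand to the GC box GGGCGG, the TATA box TATAAA or the CCAAT box CCAAT.
Slc17a7: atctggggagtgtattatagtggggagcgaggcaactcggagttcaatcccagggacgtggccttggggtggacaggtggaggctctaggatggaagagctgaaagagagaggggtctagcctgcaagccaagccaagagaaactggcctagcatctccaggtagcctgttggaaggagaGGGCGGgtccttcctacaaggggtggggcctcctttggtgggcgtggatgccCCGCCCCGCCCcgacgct
Slc1a1: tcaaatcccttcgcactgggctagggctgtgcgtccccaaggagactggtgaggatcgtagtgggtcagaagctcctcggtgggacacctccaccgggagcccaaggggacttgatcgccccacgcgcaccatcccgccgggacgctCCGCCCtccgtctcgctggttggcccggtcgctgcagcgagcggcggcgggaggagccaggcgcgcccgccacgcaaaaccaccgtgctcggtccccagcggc
Glul: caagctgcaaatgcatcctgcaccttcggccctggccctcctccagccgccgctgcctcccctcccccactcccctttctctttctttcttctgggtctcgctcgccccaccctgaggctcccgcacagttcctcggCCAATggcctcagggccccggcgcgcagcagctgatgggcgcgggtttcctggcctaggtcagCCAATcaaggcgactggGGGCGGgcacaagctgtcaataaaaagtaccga
Slc17a7 held 3 GC box matches, of which a neighbouring pair shares a base, Slc1a1 held 1 and Glul held 1 together with 2 CCAAT matches. None of the 3 held TATAAA. Of 32851 windows of this length in the table, 32.7% held GGGCGG, 33.9% CCAAT and 12.4% TATAAA. A match is a run of letters and says nothing of a factor's binding.

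The transporters shared 1 feature that the choice of genes did not use: their deposited values were lowest in Glt25d2 replicate 3. That array was the lowest of the 6 on 15 of the 17 probe sets tested, which are the 15 transporter probe sets, and on neither Glul probe set. These 15 stand for 7 genes, and the share of all genes with that array lowest was not counted. Over all genes, 32.6% lay below the mean log2 of the other Glt25d2 arrays there. On the 5 transporter probe sets where replicate 3 itself reached 50, it lay 2.78-fold to 12.9-fold below the mean log2 of the other Glt25d2 arrays. On 9 others it lay under 50, so only a bound against 50 can be given, from at least 1.46-fold to at least 13.8-fold, and Slc1a6 lay under 50 in every Glt25d2 array. On the probe set used per gene it was 12.9-fold lower for Slc1a1, 7.88-fold for Slc1a2, 5.19-fold for Slc17a6, 3.57-fold for Slc1a4, at least 4.74-fold for Slc1a3 and at least 2.72-fold for Slc17a7. In all, 6 of the 8 genes were over 2-fold below and 4 were over 4-fold below, beside 14.5% and 8.40% of all genes. With values under 50 set to 50, a setting added after the data were seen, the counts were again 6 and 4, beside 12.7% and 6.96%.

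The other genes of the pathway were grouped by place in the cell after these values were seen, so their split is a description. Of 10 carriers of the cell surface and lysosome measured, 7 reached 50 in a Glt25d2 array, and these 7 were lower in replicate 3. The amino acid carrier chain Slc3a2 was 16.1-fold lower, Slc38a2 4.39-fold, Slc38a1 3.27-fold and Slc38a7 2.31-fold, while Slc17a5, Slc7a8 and Slc7a5 fell under 50 there and were at least 4.63-fold, 3.01-fold and 1.67-fold lower. The other 3, Slc1a5, Slc7a11 and Slc38a3, lay under 50 in every Glt25d2 array and have no fold; their deposited values differed by 0, -0.026 and -0.54 on the log2 scale. The 3 mitochondrial carriers measured, Slc25a12, Slc25a18 and Slc25a22, were 0.31 to 0.60 higher there on the log2 scale. Among genes of vesicle filling, the membrane-spanning Atp6v0a1 and Clcn3 were 7.43-fold and 7.64-fold lower and Slc32a1 at least 7.91-fold, while the 4 proton pump subunits outside the membrane, Atp6v0d1, Atp6v1a, Atp6v1b2 and Atp6v1e1, differed by -0.053 to 0.23. On deposited values none of 19 glutamate enzymes was over 2-fold lower, with a range of -0.23 to 0.78. Among these, Aldh4a1 lay under 50 in every Glt25d2 array and so has no fold. Prodh and Gclm each held the same value in all Glt25d2 arrays. Membrane proteins of the surface and of vesicles are made at the endoplasmic reticulum, as background. What sets replicate 3 apart was not tested.

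**Figure D3:**
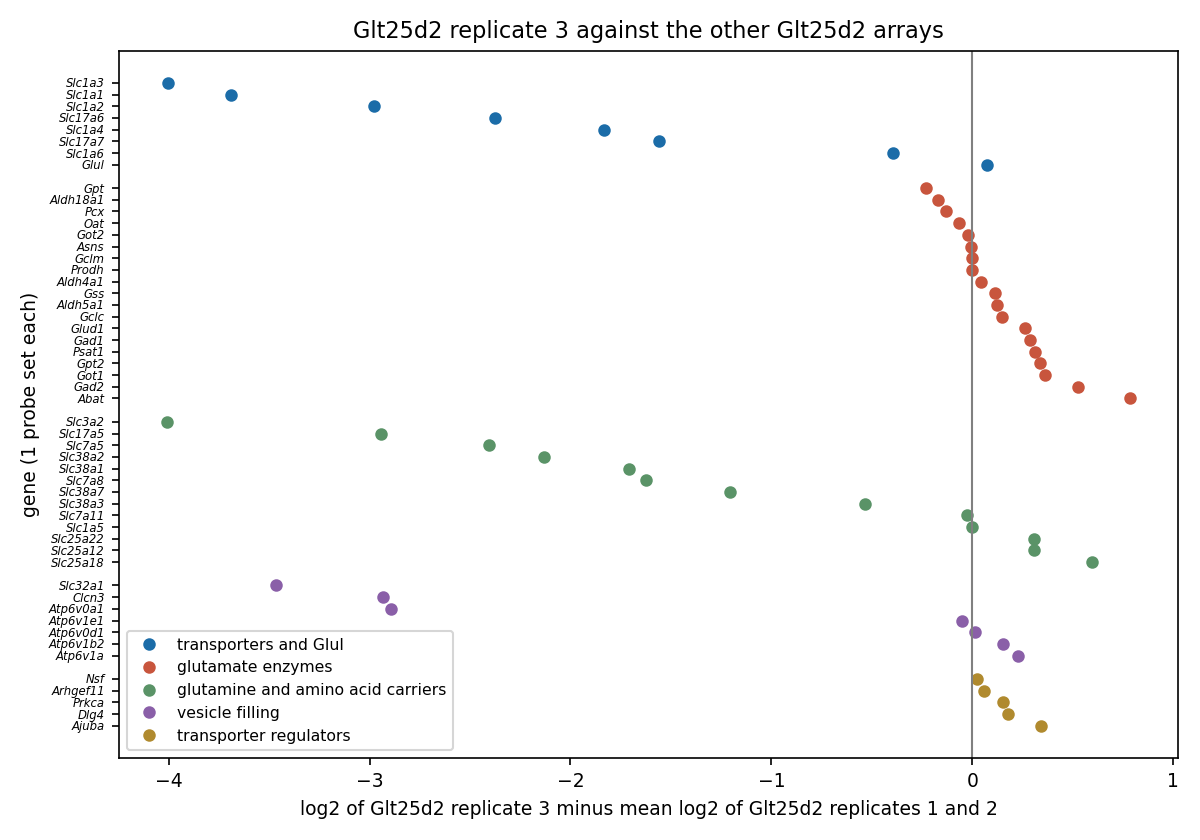
Log2 value of Glt25d2 replicate 3 minus the mean log2 of Glt25d2 replicates 1 and 2 for each gene measured in 5 lists, 1 probe set each. Values under 50 are drawn as deposited. Slc3a2 reaches -4.01 and Slc1a1 -3.69, whereas the 19 glutamate enzymes lie between -0.23 and 0.78.

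Differences between 2 genes within an array do not change with a shift common to that array, and they ask whether the genes moved unequally. They were tested by an exact permutation test over arrays, 2-sided, whose smallest p with 3 against 3 is 0.1, so no pair could pass 0.05. Slc1a2 minus Slc1a3 was 3.80, 3.46 and 4.65 in Glt25d2 and 2.86, 2.05 and 2.70 in S100a10 arrays. The S100a10 values were all lower, by 1.43 on average (exact p = 0.1). The groups stayed apart without replicate 3 (-1.09) and after quantile normalization (-1.22). With values under 50 set to 50 the difference was -0.85 and the groups were barely apart. There Glt25d2 replicate 3, with Slc1a3 set to 50, gave 2.89 and S100a10 replicate 1 gave 2.86. The result for Slc1a2 minus Slc1a3 rests on the Slc1a3 probe set used. The other tested Slc1a3 probe sets differed between lines by 1.01 and 0.86, beside 1.06 for Slc1a2 and 2.49 for the Slc1a3 probe set used. Without replicate 3 they differed by 0.061 and 0.30, beside 0.067 for Slc1a2, so they do not show the lower values. Slc17a7 minus Glul rose by 1.52 with no overlap (exact p = 0.1), or by 0.98 without replicate 3 and 0.94 after quantile normalization. Slc17a7 minus Slc17a6 was -2.25, -2.26 and -1.44 against -1.38, -1.12 and -1.63, which overlapped (difference 0.61, exact p = 0.2). Slc17a7 minus Slc1a2 also overlapped (1.06, exact p = 0.2). Without replicate 3 neither overlapped, at 0.88 and 1.53. Glul minus Slc1a2 differed by -0.46 with all arrays (exact p = 1) and by 0.55 without replicate 3. The number of tests in this family was 5, and adjusted for them no p with all arrays is below 0.25. Without replicate 3 the smallest exact p is 0.2, and each of the 5 adjusted values was 0.2.

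Enzymes that make or use glutamate were called in both directions. Of 20 listed, 19 were measured, and 6 were higher in S100a10 cells, 3 were lower and 10 did not pass, beside 44.4% higher and 4.50% lower among all genes, with a median of -0.0035 beside 0.56. Without Glt25d2 replicate 3 the counts were again 6 and 3, beside 55.1% and 6.13%. After quantile normalization they were 3 and 7, beside 18.4% each way, after centring 2 and 11, beside 16.4% and 31.3%, and with quantile normalization and without that array 3 and 7, beside 23.8% and 22.9%. In each of these fits the share higher was below that of all genes and the share lower was above it, which is a description and was not tested. Both enzymes that turn proline to glutamate were higher: Prodh read 60.4 in each Glt25d2 array and 274, 292 and 344 in S100a10 arrays, which differ by 2.32 (SE 0.12, limma adjusted p = 5.35e-05), and Aldh4a1 was at least 3.21-fold higher, since it read 6.43 to 6.72 in Glt25d2 arrays. The filter kept Aldh4a1 through its S100a10 values alone. Aldh18a1, which starts proline synthesis from glutamate, was higher by 1.13 (SE 0.13, limma adjusted p = 0.00103). These 3 also passed after quantile normalization, where Prodh was at 1.47 and Aldh18a1 at 0.49, and without replicate 3. Gclm and Gclc, the subunits of the enzyme that joins glutamate and cysteine for glutathione, were higher by 0.82 and 0.54 but not after quantile normalization (limma adjusted p = 0.215 and 0.758), and the remaining higher gene, Pcx, turned from 0.40 to -0.30 there. Psat1, a transaminase of serine synthesis that uses glutamate, was lower, at -0.99 (SE 0.17, limma adjusted p = 0.00541). Asns, asparagine synthetase, was at -0.59 (limma adjusted p = 0.00583) and Got1, the cytosolic aspartate aminotransferase, at -0.51 (0.0360). The differences of Psat1, Asns and Got1 were -0.89, -0.60 and -0.39 without replicate 3 and -1.45, -0.80 and -0.73 after quantile normalization, and the 3 genes passed in both fits.

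Carriers of glutamine and related amino acids showed 4 of 13 measured genes higher and none lower, among 16 listed (limma; 6 and 0 at an unadjusted p under 0.05), beside 44.4% and 4.50% of all genes. Slc38a2, a glutamine carrier found in neurons, read 2339, 2495 and 550.3 in Glt25d2 and 8271, 10195 and 8146 in S100a10 arrays, which differ by 2.58 (SE 0.61, limma adjusted p = 0.0162), or 1.87 without replicate 3, 2.25 after quantile normalization (limma adjusted p = 0.0237) and 1.57 with both changes. Slc38a3, the glutamine carrier of astrocytes, was at least 4.21-fold higher, the cystine and glutamate exchanger Slc7a11 at least 4.73-fold and the neutral carrier Slc1a5 at least 1.66-fold. Every Glt25d2 array lay under 50 for these 3 genes, so the filter kept them through S100a10 alone, and all 3 passed after quantile normalization. With both group means at 50 or more 1 carrier was higher. Without replicate 3, 8 carriers were higher and 1 was lower, beside 55.1% and 6.13% of all genes. Quantile normalization gave 4 and 1, beside 18.4% each way, and both changes 4 and 3, beside 23.8% and 22.9%. The lower one without replicate 3 was Slc38a1, a glutamine carrier of neurons, which went from -0.036 (limma adjusted p = 0.956) to -0.61 (0.0198).

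Of 7 listed regulators of transporter trafficking 5 were measured, of which 3 were higher and none was lower (limma; 4 and 0 at an unadjusted p under 0.05), beside 44.4% and 4.50% of all genes. Ajuba, a partner of the Slc1a2 protein, was at least 9.34-fold higher, Arhgef11, which binds the Slc1a6 protein, was higher by 1.03 and Dlg4, a synaptic scaffold, by 0.70. The filter kept Ajuba through its S100a10 values alone. Without replicate 3 the counts were again 3 and 0, beside 55.1% and 6.13% of all genes. After quantile normalization only Ajuba passed, beside 18.4% of all genes higher, and Dlg4 turned to -0.15. Of 7 vesicle filling genes measured among 9 listed, none passed in either direction (limma; 0 higher and 1 lower at an unadjusted p under 0.05), beside the same 44.4% and 4.50%. Without replicate 3 the 1 gene that passed was Slc32a1, higher by 1.18. After quantile normalization 2 were lower, the proton pump subunits Atp6v1b2 at -0.44 and Atp6v1e1 at -0.41, beside 18.4% of all genes lower. After centring 4 were lower, beside 31.3%, and 3 were lower with quantile normalization and without replicate 3, beside 22.9%.

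Markers of neurons, glia and vessel cells also differed between the lines, and their part in the results above was not tested. Counts of markers stand beside these shares of all genes called higher and lower. They were 44.4% and 4.50% with all arrays, 55.1% and 6.13% without Glt25d2 replicate 3, and 18.4% each way after quantile normalization. After centring they were 16.4% and 31.3%, and with quantile normalization and without replicate 3 they were 23.8% and 22.9%. Of the excitatory neuron list 8 of 9 genes were measured. The 5 that mark excitatory cells most closely (Neurod6, Neurod2, Tbr1, Camk2a and Nrgn) summed to 9692 to 12242 in Glt25d2 and 15150 to 15987 in S100a10 arrays, and the 3 made by neurons in general (Snap25, Syt1 and Rbfox3) to 57246 to 62557 and 76280 to 76743. These sums and those below are on the deposited scale and are set mostly by the brightest probe sets. Snap25 alone read 36210 to 44643 and 48177 to 50431. It did not pass (limma adjusted p = 0.0784) and differed by 0.078 after quantile normalization. Neurod6, Nrgn and Rbfox3 were higher by 0.94, 0.50 and 0.53 and none of the 8 was lower. After quantile normalization Neurod6 was higher and Camk2a was lower, at -0.88 (limma adjusted p = 0.0230), and after centring none was higher and 3 were lower. Interneuron markers were present too. Of 8 measured, Npy, Sst and Lhx6 were higher by 3.46, 2.88 and 2.57 and Pvalb was lower, at -2.43 (limma adjusted p = 2.22e-04). These 4 calls held after quantile normalization and without replicate 3. Gad1, the main enzyme that turns glutamate to GABA, read 8838 to 13434 in Glt25d2 and 11749 to 14661 in S100a10 arrays and did not pass (limma adjusted p = 0.596).

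Of 13 astrocyte markers, all measured, 4 were higher (Gjb6 by 6.26, Aldh1l1 by 2.23, S100b by 1.17 and Sox9 by 1.05) and 3 were lower (Gfap at least 1.98-fold, Acsbg1 at -1.40 and Aldoc at -1.07). The filter kept Gfap through its Glt25d2 values alone. Among all genes 44.4% were higher and 4.50% lower. The summed level of the 13 was 11729 to 19053 in Glt25d2 and 20898 to 26501 in S100a10 arrays, on the deposited scale and weighted to the brightest probe sets. The counts were 6 and 6 without replicate 3, beside 55.1% and 6.13% of all genes. They were 3 and 3 after quantile normalization, beside 18.4% each way, and 3 and 6 with both changes, beside 23.8% and 22.9%. Of 7 oligodendrocyte markers measured 2 were lower, Mbp at -0.95 and Ermn at -1.52, and none was higher, with summed levels of 17770 to 24419 in Glt25d2 and 10104 to 16887 in S100a10 arrays. After quantile normalization 3 were lower, beside 18.4% of all genes. Without replicate 3 as well 6 were lower and Cldn11 was higher, beside 22.9% of all genes lower and 23.8% higher. Of 4 markers of oligodendrocyte precursors, Pdgfra was higher by 2.50 and Olig2 at least 1.78-fold, but neither passed after quantile normalization, where Cspg4 was lower, at -0.68. The filter kept Olig2 through its S100a10 values alone.

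Of 7 mural cell and fibroblast markers measured 6 were higher, with summed levels of 695 to 877 in Glt25d2 and 7276 to 9253 in S100a10 arrays, and the mural marker Rgs5 was lower, at -0.88 (limma adjusted p = 0.00450). Of the higher genes, Col1a2, Pdgfrb, Lum and Myl9 lay under 50 in every Glt25d2 array. The filter kept those genes through their S100a10 values alone. Among all genes 44.4% were higher and 4.50% lower. The mural counts of 6 and 1 were the same without replicate 3, beside 55.1% and 6.13% of all genes. They were also the same after quantile normalization, beside 18.4% each way, and there Rgs5 was at -1.58. Of 7 endothelial markers 5 lay under 50 in both group means (Pecam1, Cdh5, Tek, Flt1 and Kdr). The other 2 had lower values in S100a10: Esam was lower, at -0.97 (limma adjusted p = 0.00427), and Cldn5 was at -1.72 (0.126), or -2.63 without replicate 3 (1.85e-04), and both passed after quantile normalization. The microglial P2ry12 and C1qa lay under 50 in both group means, and of 4 microglial markers measured Tmem119 was at least 3.99-fold higher. Tmem119 was kept through its S100a10 values alone. The other 3, Cx3cr1, Csf1r and Aif1, did not pass, at 0.65, -0.021 and 0.23. After quantile normalization they were at -0.22, -0.88 and -0.57 and did not pass either.

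The genes with the profiles most like those of Slc17a7, Slc1a2, Slc1a3 and Glul were sought over the 6 arrays by the mean absolute difference between log2 profiles, each centred on its own mean. Nearest to Slc17a7 were Ginm1 at 0.061, Alg2 at 0.077 and Trpv2 at 0.081, where the median over 11820 genes was 0.82. For Slc1a2 they were Cd47 at 0.044, Itfg1 at 0.049 and Casd1 at 0.061, each low in Glt25d2 replicate 3: Cd47 read 3072, 3913 and 437 in Glt25d2 and 3055, 3389 and 3955 in S100a10 arrays. For Slc1a3 they were the tight junction gene Cldn11 at 0.14, Selenos at 0.15 and Slc32a1, the vesicular carrier of GABA, at 0.16. For Glul they were Ahctf1 at 0.049, Usp31 at 0.049 and Cyp20a1 at 0.052, where the median was 0.33. With 6 arrays a likeness mostly reflects the difference between lines and replicate 3.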

How the data were processed

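RNA from 6 TRAP samples was measured on Affymetrix mouse arrays. The deposited table holds linear intensities that the authors made with GCRMA, as the submitters' processing notes name it (version not given in the sources used here). That method subtracts a background modelled from probe sequence, equalises quantiles and combines the probes of a set. The series text speaks of averaged replicates, but each array has its own column, and these 6 were used. Between the sorted log2 values of 2 arrays the mean absolute difference was 0.0174 to 0.0811 within a line and 0.447 to 0.508 across lines, so differences between lines may hold a part set by the scaling. In 46.8% of probe sets at least 2 Glt25d2 arrays held the same value, against 0.979% for S100a10, so spreads in Glt25d2 can be understated.

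Of 45101 probe sets 64 controls were left out. The platform annotation names 1 gene for 34945 of the others, several for 932 and none for 9160. Probe sets were kept where either group's mean reached 50, the limit proposed in the series text. Their log2 values were fitted in R 4.3.3 by limma 3.58.1 (lmFit, eBayes, 2-sided, adjusted p under 0.05), without a block. Where all arrays of a line lay under 50, the fold is a bound against 50 on the deposited scale. The number of arrays limits the precision. The replicate numbers carry a letter b in S100a10 titles and the correlations of same-numbered arrays' deviations were -0.452, 0.224 and -0.238, so they are not pairs.

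The genes and lists were chosen with earlier results of these data known, and 1 gene of a list is not reported here. The rule for named genes takes all 8 genes found with every probe set tested, the passing genes of each pathway list up to 4 a direction, the 3 nearest profiles of 4 genes, and the markers; other genes named were chosen after their values were seen. Alternatives were the scaling, the filter, a pseudocount of 16, values under 50 set to 50, a replicate block, a trended prior, 1 probe set per gene and each array left out. The fit was tested on simulated data. Plots were drawn with matplotlib 3.10.9, numpy 2.4.6 and pandas 2.3.3 in Python 3.11.15.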

Additional observations from a re-analysis of the deposited data

How the results depend on the processing

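The number of the 8 genes called higher in S100a10 cells, 3 with all arrays, was 1 after quantile normalization, 1 after centring and 1 with quantile normalization and without Glt25d2 replicate 3, and ranged from 3 to 5 with single arrays left out. It was 2 with both group means at 50 or more, a filter that leaves out Slc1a6. The number lower was 0 to 1 with single arrays left out and 2 with quantile normalization and without Glt25d2 replicate 3. Of enzymes, 3, 2 and 3 were higher and 7, 11 and 7 lower after quantile normalization, after centring and after quantile normalization without that array, and 5 to 6 were higher and 2 to 3 lower with single arrays left out. Of carriers, 7 were higher with no filter, 1 with both group means at 50 or more and 3 to 8 with single arrays left out, and 1, 2 and 3 were lower in the 3 rescaled fits and 0 to 1 with single arrays left out. Over all probe sets 9405 were higher and 934 lower. These became 3574 and 4128 after quantile normalization, 3363 and 6447 after centring, 4770 and 5108 after quantile normalization without Glt25d2 replicate 3, 19640 and 5131 with no filter and 5285 and 542 with 1 probe set per gene; with single arrays left out they ranged from 7361 to 11722 and from 617 to 1278. With the replicate number as a block 558 were lower and 7457 higher, and the block changed no call among the 17 probe sets of the 8 genes. Over the 17 probe sets and all alternatives, 223 of the fits kept direction and side of the threshold. With the direction kept, 6 others lost a call and 2 gained one. The filters, the block, the trended prior and 1 probe set per gene leave the difference itself unchanged, so its sign could not turn there. Signs turned in 31, of which none belonged to Slc17a7, Slc1a6, the dimmer Glul probe set or the brightest of Slc17a6 and Slc1a3. Some of the turned fits also crossed the threshold. Both tested Slc1a1 probe sets gained a call as lower without Glt25d2 replicate 3. With quantile normalization as well, Slc1a1, the dimmest tested Slc1a2 and the brightest and dimmest Slc1a4 probe sets did so. The brighter Glul probe set lost its call after centring. Quantile normalization gave -0.47 and -0.024 for Slc1a1, -0.051 for Slc1a2, -0.0052 for Slc1a3 and -0.14 and -0.66 for Slc1a4. Centring gave -0.49 and -0.22 for Slc1a1, -0.056 for Slc1a2, -0.0085, -0.060 and -0.61 for Slc1a4 and -0.17 for Glul. Setting values under 50 to 50 gave -0.032 for Slc1a2 and -0.092 for Slc1a4. With single arrays left out, Slc1a1 ranged from -1.09 to 1.02 and from -0.68 to 1.17, Slc1a2 from -0.21 to 1.18, Slc1a4 from -0.37 to 1.40 and from -0.46 to 0.49 (it was -0.037 without S100a10 replicate 2), and Glul minus Slc1a2 from -1.01 to 0.55; each other negative probe set value here was without Glt25d2 replicate 3, as was 0.55. Quantile normalization without Glt25d2 replicate 3 gave -0.30 for Slc17a6, -1.68 and -1.12 for Slc1a1, -0.28 and -1.06 for Slc1a2, -0.66 and -0.54 for Slc1a3 and -1.20, -0.53 and -1.14 for Slc1a4. The highest adjusted p of Slc17a7 with an array left out was 0.0480. Probe sets near 50, such as that of Slc1a6, are limited by signal over background. The cause of these changes was not tested.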
